A study of Mus musculus with 12 samples.

Results

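The genes described here are 9 inhibitory receptor or checkpoint ligand genes of T cells and the gene of 1 ectonucleotidase. They are Pdcd1, Ctla4, Btla, Tigit, Cd160, Lag3, Havcr2, Cd200, Cd200r1 and Entpd1. They were chosen by symbol as a gene family and joined by gene ID to the count table. The rule uses no measured value, but the genes were chosen with earlier results of these data known. All 10 were among the 56748 genes counted, and all 10 passed the filter on low counts that left 15688 genes to test.

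Bulk RNA was sequenced from cultured CD8+ T cells whose donors, mice with a transgenic T cell receptor, supplied the spleens, to ask how growth with dichloroacetate (DCA) changes them. DCA inhibits the kinases that switch off pyruvate dehydrogenase, the enzyme complex that passes pyruvate into the mitochondrial citric acid cycle. Splenocytes received the peptide of their receptor for 24 hours and IL-2 at 50 ug/mL, grew for 6 further days with 5 mM DCA or without it, and were sorted for CD8 on day 7. The 6 mice, 3 in each of 2 experiments, supplied an untreated and a DCA library apiece, which makes 4 groups of 3 libraries.

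Experiment 1 carries the strain tag OT-1 (C57BL/6-Tg(TcraTcrb)1100Mjb/J), whose receptor sees an ovalbumin peptide, SIINFEKL, given at 250 nM. Experiment 2 carries the strain tag Pmel-1 (the Tg(TcraTcrb)8Rest/J transgene, listed with B6.Cg-Thy1a/Cy), whose receptor sees gp100, given at 1 uM. The titles name Pmel-1 in experiment 1 as well. Transcripts of Trbv12-1, from the family of beta segments used in OT-1, ran from 202 to 236 CPM (counts scaled to a fixed library size) in experiment 1 and from 0.0588 to 0.493 in experiment 2. Those of Trbv14, which pmel-1 uses, were at 0 in experiment 1 and ran from 1679 to 2577 CPM in experiment 2. Strain, peptide, technical batch and experiment coincide and cannot be told apart.

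The inhibitory receptors sit in the membrane of T cells and weaken signalling from the T cell receptor when they meet their ligand on another cell. Several of them do so by recruiting phosphatases or taking up costimulatory ligands. Transient expression of several of these receptors follows activation. Lasting expression of several together is a mark of exhausted CD8+ T cells in chronic infection and tumours. Entpd1 encodes CD39, which splits extracellular ATP and so begins the path to adenosine, itself a brake on T cells.

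Libraries held 28039699 to 41051066 counts, with 18382 to 19551 genes detected in experiment 1 and 23635 to 26571 in experiment 2. The 6 CD8 T cell markers summed to 3574 to 5564 CPM per library, and Cd4 reached at most 0.701 CPM. The B cell genes Ms4a1 and Pax5 reached at most 0.0303 and 0.0831 CPM, and the macrophage genes Csf1r and C1qa at most 0.0554 CPM and 0. Other genes on the same marker lists were higher. Cd79b reached 41.9 CPM on the B cell list, Cd68 29.9 and Cd14 3.44 on the macrophage list, and Zbtb7b 8.06 on the CD4 list. In bulk RNA, fewer cells that express a gene and less of its RNA per cell cannot be told apart.

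With DCA over both experiments, 3 of the 10 genes rose and 1 fell. Cd200 rose 4.38-fold, Btla 3.60-fold and Tigit 1.95-fold, and Entpd1 fell to 0.542 of its untreated level. Pdcd1, Ctla4, Cd160, Lag3, Havcr2 and Cd200r1 did not pass the test. The test was edgeR's quasi-likelihood test with a term for experiment and p-values adjusted over all 15688 genes at a threshold of 0.05. The background is a call in 16.8% of all genes, 7.01% higher and 9.8% lower. The median log2 fold change of the 10 genes was 0.28, and that of all genes tested was -0.02. An unadjusted p under 0.05 was reached by 6 of the 10, but was common among all genes. Cd160, with an unadjusted p of 0.0364 in this test, ranked only 4208 of 15688 by p.

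**Figure D1:**
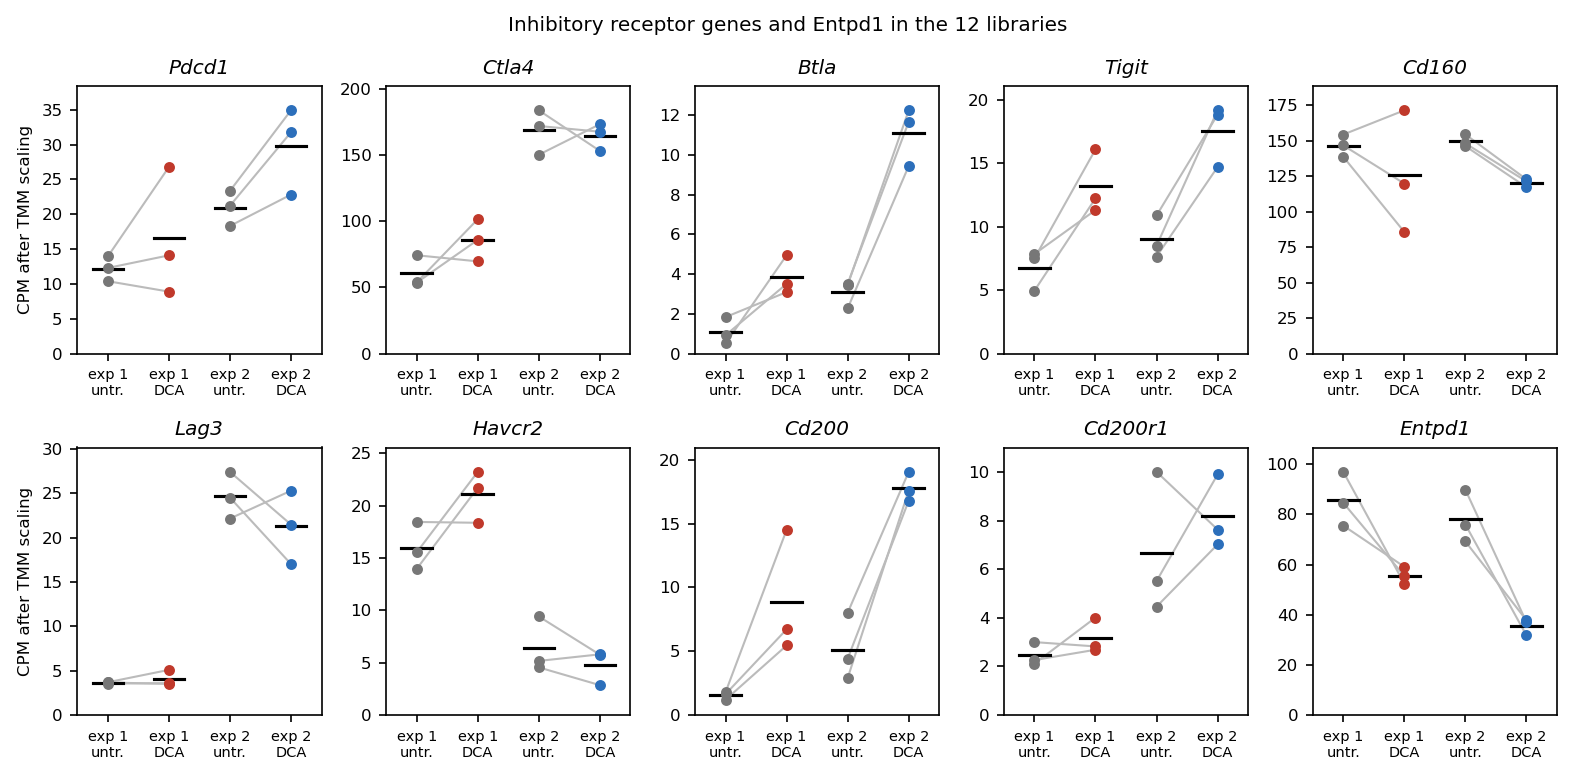
Level of each gene in CPM after TMM scaling (vertical axes, starting at 0) in the 3 libraries of each of the 4 groups. Points are libraries, black bars are group means and grey lines join the untreated and DCA libraries of 1 mouse. Cd200, Btla and Tigit are higher with DCA, and Entpd1 lower, in each of the 6 mice. Lag3, Havcr2, Ctla4 and Cd200r1 separate by experiment.

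Between genes, levels were compared as CPM per kilobase of the gene length in the authors' deposited table. In untreated cells of experiment 1 the order was Cd160 (55.4 ± 3.0 CPM per kilobase, SD, n = 3), Ctla4 (26.0 ± 5.1), Entpd1 (15.4 ± 1.9), Tigit (7.36 ± 1.72), Pdcd1 (6.31 ± 0.92), Havcr2 (5.87 ± 0.84), Lag3 (1.73 ± 0.04), Cd200r1 (0.736 ± 0.142), Cd200 (0.465 ± 0.092) and Btla (0.320 ± 0.200). The ranges of neighbours overlapped for Tigit and Pdcd1, for Pdcd1 and Havcr2, and for Cd200 and Btla, and were apart for the other pairs. Cd160, which encodes a receptor of HVEM, and Ctla4, which encodes a competitor of CD28, had the highest levels per length in each of the 4 groups.

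In untreated cells of experiment 2 Ctla4 led (72.4 ± 7.3 CPM per kilobase) before Cd160 (56.6 ± 1.6). Entpd1 (14.0 ± 1.9), Lag3 (11.7 ± 1.3), Pdcd1 (10.8 ± 1.3) and Tigit (9.79 ± 1.83) followed with ranges that overlapped from each to the next. Havcr2 (2.34 ± 0.97), Cd200r1 (1.99 ± 0.88), Cd200 (1.54 ± 0.79) and Btla (0.907 ± 0.206) were lowest, again with overlap from each to the next.

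With DCA, the mean of Tigit took the third place in both experiments, at 14.4 ± 2.8 CPM per kilobase in experiment 1 and 19.1 ± 2.7 in experiment 2, where its range overlapped that of Pdcd1 in the fourth. The mean of Entpd1 moved from the third place to the fourth in experiment 1 (9.97 ± 0.61), with a range that overlapped that of Pdcd1, and to the sixth in experiment 2 (6.36 ± 0.59), with a range that overlapped that of Cd200. Cd160 and Ctla4 also overlapped in DCA cells of experiment 1. Cd200 stood above Btla and Cd200r1 with DCA, at 2.68 ± 1.48 CPM per kilobase in experiment 1 and 5.37 ± 0.35 in experiment 2, and Btla was at 1.13 ± 0.29 and 3.27 ± 0.44. Ranking by CPM without the length moved 12 of the 40 places.

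**Figure D2:**
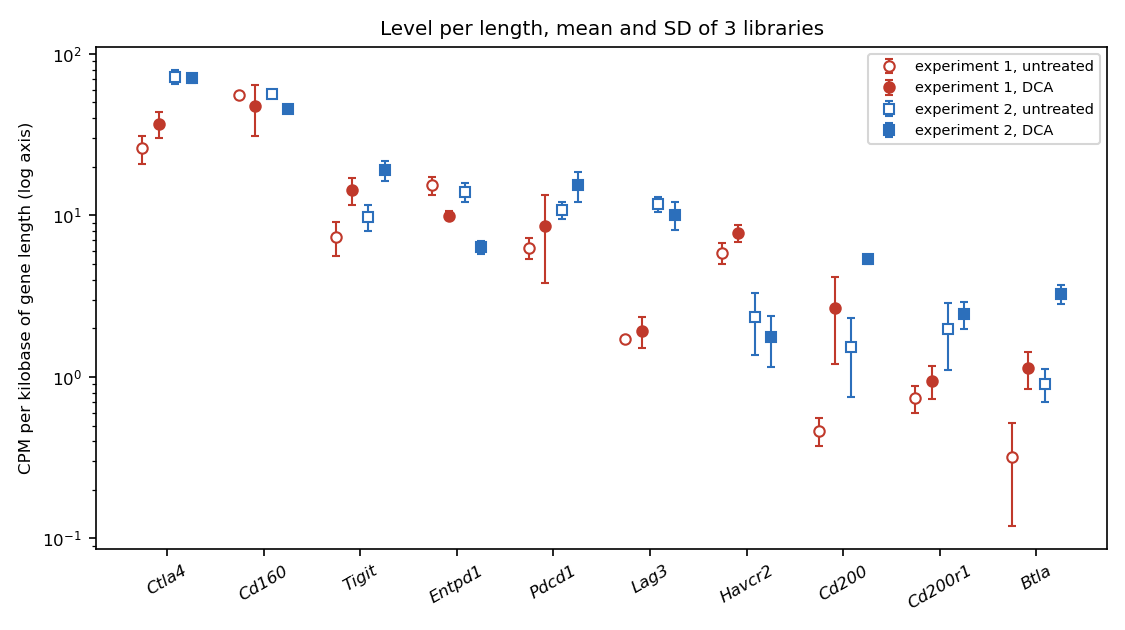
Level of each gene as CPM per kilobase of gene length (vertical log axis) in the 4 groups, as the mean and SD of 3 libraries. Ctla4 and Cd160 are highest in all groups, and Btla, Cd200 and Cd200r1 are at or under 5.37 CPM per kilobase in all of them.

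Sequences upstream of the 4 genes that passed the test are given because 3 of them lie on chromosome 16 and moved the same way. Btla and Cd200 are next to each other there, and Tigit lies further off, with other genes between. The sequences are the 250 bases before the RefSeq start on build GRCm38.p6, from tables that held 8 of the 10 genes, and Entpd1 has 2 starts. They are printed 5′ to 3′ on the gene's strand, chr16:45409054-45409303 (minus strand) for Cd200, chr16:45224087-45224336 (plus) for Btla, chr16:43664185-43664434 (minus) for Tigit, and chr19:40612116-40612365 and chr19:40659520-40659769 (plus) for Entpd1. Capitals mark matches, on either strand, to the core of NFAT sites (GGAAA), AP-1 sites (TGANTCA), TCF/LEF sites (ATCAAAG), hypoxia response elements (ACGTG) and STAT sites (TTCNNNGAA). NFAT and AP-1 carry the T cell receptor signal, and hypoxia response elements bind HIF-1. The start used for Tigit was not found in the reference transcripts.
Cd200: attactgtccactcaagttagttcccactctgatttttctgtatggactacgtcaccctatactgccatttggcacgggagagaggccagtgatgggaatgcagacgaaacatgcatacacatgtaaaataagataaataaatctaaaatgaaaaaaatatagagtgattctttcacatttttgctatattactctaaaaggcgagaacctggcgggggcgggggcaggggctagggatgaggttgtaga
Btla: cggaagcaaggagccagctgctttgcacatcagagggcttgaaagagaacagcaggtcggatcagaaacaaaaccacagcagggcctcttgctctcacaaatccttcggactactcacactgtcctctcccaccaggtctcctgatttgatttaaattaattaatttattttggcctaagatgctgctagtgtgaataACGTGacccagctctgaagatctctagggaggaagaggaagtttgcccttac
Tigit: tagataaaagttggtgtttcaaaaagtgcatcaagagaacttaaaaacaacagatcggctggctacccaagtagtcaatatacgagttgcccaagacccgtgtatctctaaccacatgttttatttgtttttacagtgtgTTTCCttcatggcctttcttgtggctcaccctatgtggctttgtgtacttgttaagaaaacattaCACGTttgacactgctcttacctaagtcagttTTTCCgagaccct
Entpd1, the first start: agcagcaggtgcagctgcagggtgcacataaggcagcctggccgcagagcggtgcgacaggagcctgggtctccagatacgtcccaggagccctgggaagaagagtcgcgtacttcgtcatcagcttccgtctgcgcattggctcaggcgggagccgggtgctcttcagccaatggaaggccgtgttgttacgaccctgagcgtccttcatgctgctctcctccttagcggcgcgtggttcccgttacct
Entpd1, the second start: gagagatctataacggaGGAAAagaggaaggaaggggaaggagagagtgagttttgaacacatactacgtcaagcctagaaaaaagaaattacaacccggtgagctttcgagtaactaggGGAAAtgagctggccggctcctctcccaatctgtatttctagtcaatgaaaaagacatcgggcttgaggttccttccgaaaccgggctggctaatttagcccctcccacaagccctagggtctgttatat
The Cd200 window and that of the first Entpd1 start held none of the 5 motifs. The Btla window held a hypoxia core at 52 to 48 bases upstream. The Tigit window held NFAT cores at 110 to 106 and 13 to 9 bases upstream and a hypoxia core at 45 to 41. The window of the second Entpd1 start held NFAT cores at 233 to 229 and 130 to 126. Of 32536 upstream windows in the table, 55.7% held GGAAA, 16.7% ACGTG, 7.04% TTCNNNGAA, 6.73% TGANTCA and 3.21% ATCAAAG. Of the 10 windows of these genes, 5 held GGAAA, 4 ACGTG, 1 TTCNNNGAA, 1 TGANTCA and 0 ATCAAAG. A match is a description of letters, not of binding.

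Cd200 encodes a membrane glycoprotein that signals through the receptor CD200R on myeloid and some lymphoid cells and restrains them. In experiment 1 it was at 1.64, 1.79 and 1.20 CPM in the untreated cells of mice 1, 2 and 3, and at 6.72, 14.5 and 5.46 CPM with DCA. The values of experiment 2 were 2.90, 4.43 and 8.02 CPM without DCA and 17.6, 16.8 and 19.1 CPM with it. Every DCA library was above every untreated library of its experiment, and the DCA library of mouse 2 stood above the other two in experiment 1. The log2 fold change was 2.13 over both experiments (SE 0.28, adjusted p = 0.000332), 2.52 in experiment 1 (SE 0.39, adjusted p = 0.00105) and 1.80 in experiment 2 (SE 0.36, adjusted p = 0.0152). Within mice the ratio of DCA to untreated ran from 4.10 to 8.12 in experiment 1 and from 2.38 to 6.07 in experiment 2. Counts behind the untreated values of experiment 1 were 42, 60 and 34 reads. The call in experiment 2 was lost without untreated replicate 1 (adjusted p = 0.0531), untreated replicate 2 (0.0835) or DCA replicate 1 (0.0528), at log2 fold changes of 1.46, 1.66 and 1.77.

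Cd200r1, the gene of the receptor for CD200, did not pass the test. Experiment 1 gave 3.00, 2.27 and 2.12 CPM without DCA and 2.83, 2.69 and 4.01 CPM with it. Experiment 2 gave 10.0, 5.52 and 4.46 CPM without DCA and 7.64, 9.91 and 7.03 CPM with it. The arms overlapped in each experiment, and 4 of 6 mice were higher with DCA (log2 fold change 0.33, SE 0.21, adjusted p = 0.317). Related genes, Cd200r2, Cd200r3 and Cd200r4, lie next to it, and the sources used here do not say how reads shared between them were counted, so its values are uncertain.

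Btla encodes a receptor of the immunoglobulin superfamily that binds HVEM and recruits the phosphatases SHP-1 and SHP-2. The untreated cells of experiment 1 had 1.83, 0.507 and 0.918 CPM and the DCA cells 3.09, 4.95 and 3.51. The untreated cells of experiment 2 had 3.51, 2.27 and 3.45 CPM and the DCA cells 11.7, 9.44 and 12.2. No DCA library overlapped the untreated ones of its experiment. Its log2 fold change was 1.85 over both experiments (SE 0.25, adjusted p = 0.000356), and also 1.85 within experiment 1 (SE 0.37, adjusted p = 0.00467) and within experiment 2 (SE 0.34, adjusted p = 0.00981). The mice of experiment 1 were uneven, with ratios of 1.69, 9.76 and 3.82, while those of experiment 2 ran from 3.32 to 4.15. The untreated libraries of experiment 1 held only 47, 17 and 26 reads of Btla. Without untreated replicate 1 the log2 fold change in experiment 1 was 2.44. The call in experiment 2 was lost without untreated replicate 2 (1.64, adjusted p = 0.0652).

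Cd160 encodes a receptor, anchored in the membrane by a lipid in its main form, that shares the ligand HVEM with BTLA. Levels in experiment 1 were 139, 147 and 154 CPM for untreated and 85.6, 120 and 171 CPM for DCA cells. Levels in experiment 2 were 146, 154 and 148 CPM for untreated and 117, 123 and 121 CPM for DCA cells. The arms overlapped in experiment 1, where DCA replicate 3 was the highest library and DCA replicate 1 the lowest, and did not overlap in experiment 2. The log2 fold change over both experiments was -0.27 (SE 0.12, adjusted p = 0.136), below 0 in 5 of 6 mice. It passed the test without exp1 DCA replicate 3 (-0.40, adjusted p = 0.00629) and with no filter on low counts (0.0132).

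Pdcd1 encodes PD-1, the receptor of PD-L1 and PD-L2. In experiment 1 the untreated arm had 13.9, 12.3 and 10.4 CPM of Pdcd1 and the DCA arm 26.8, 14.1 and 8.88. In experiment 2 the untreated arm had 23.3, 18.3 and 21.2 CPM of Pdcd1 and the DCA arm 34.9, 22.8 and 31.8. The arms overlapped in both experiments, and 5 of 6 mice were higher with DCA. The log2 fold change was 0.48 (SE 0.20, adjusted p = 0.128) over both experiments, 0.44 (SE 0.30, adjusted p = 0.350) in experiment 1 and 0.51 (SE 0.29, adjusted p = 0.388) in experiment 2. Without exp1 DCA replicate 1 the value over both experiments was 0.26 and without exp1 DCA replicate 3 it was 0.61 (adjusted p = 0.0233).

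Ctla4 encodes a receptor that takes CD80 and CD86 away from the costimulatory receptor CD28. Ctla4 stood at 53.8, 53.6 and 74.3 CPM in untreated cells of experiment 1, and at 102, 85.9 and 69.6 CPM after DCA. Ctla4 stood at 172, 150 and 184 CPM in untreated cells of experiment 2, and at 168, 173 and 153 CPM after DCA. The arms overlapped in both experiments, and mouse 3 of experiment 1 had the highest untreated and the lowest DCA value of its experiment. In experiment 1 the log2 fold change of 0.50 passed the test (SE 0.14, adjusted p = 0.0285). That call was lost with a term per mouse (replicate block, adjusted p = 0.0659), in a fit of these 6 libraries alone (0.0584) and without untreated replicate 1 (0.110) or 2 (0.111) or DCA replicate 1 (0.130) or 2 (0.0603). In experiment 2 it was -0.03 (SE 0.14, adjusted p = 0.944), and over both experiments 0.23 (SE 0.12, adjusted p = 0.226).

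Tigit encodes a receptor that binds the nectin-like protein CD155 in competition with the activating receptor CD226. For experiment 1 the values were 7.49, 4.95 and 7.84 CPM untreated, then 16.1, 12.2 and 11.3 CPM under DCA. For experiment 2 the values were 7.64, 8.49 and 10.9 CPM untreated, then 14.7, 19.2 and 18.8 CPM under DCA. Every DCA library was above every untreated library in each experiment, and the ratios within mice ran from 1.44 to 2.47. The log2 fold change was 0.97 over both experiments (SE 0.15, adjusted p = 0.000736), 0.97 in experiment 1 (SE 0.22, adjusted p = 0.00784) and 0.96 in experiment 2 (SE 0.21, adjusted p = 0.0208). The call in experiment 2 was lost without untreated replicate 1 (adjusted p = 0.103) or 2 (0.118) or DCA replicate 2 (0.106) or 3 (0.0882), at log2 fold changes of 0.80 to 0.89.

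Lag3 encodes a CD4-like receptor of MHC class II and of other ligands. Lag3 stood at 3.55, 3.70 and 3.67 CPM in untreated and at 3.59, 5.09 and 3.51 CPM in DCA cells of experiment 1. Lag3 stood at 27.4, 22.2 and 24.5 CPM in untreated and at 21.5, 25.3 and 17.0 CPM in DCA cells of experiment 2. The arms overlapped in both experiments, and 3 mice were higher and 3 lower with DCA (log2 fold change -0.05, 95% interval -0.34 to 0.25, adjusted p = 0.869).

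Havcr2 encodes TIM-3, a receptor of galectin-9 and phosphatidylserine, among other ligands. Levels of Havcr2 in experiment 1 were 15.5, 14.0 and 18.4 CPM untreated, against 23.2, 21.7 and 18.4 CPM with DCA. Levels of Havcr2 in experiment 2 were 9.41, 4.55 and 5.17 CPM untreated, against 5.76, 2.85 and 5.79 CPM with DCA. The arms overlapped in both experiments. The log2 fold change was 0.01 over both (95% interval -0.46 to 0.49, adjusted p = 0.981), 0.40 in experiment 1 (SE 0.28, adjusted p = 0.368) and -0.41 in experiment 2 (SE 0.29, adjusted p = 0.517).

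Entpd1, the ectonucleotidase gene, fell. The mice of experiment 1 had 84.6, 97.0 and 75.5 CPM of Entpd1 untreated and 55.5, 52.3 and 59.1 CPM under DCA. The mice of experiment 2 had 89.8, 69.2 and 75.9 CPM of Entpd1 untreated and 37.0, 37.8 and 31.7 CPM under DCA. Every DCA library lay below every untreated library of the whole study. The log2 fold change was -0.88 over both experiments (SE 0.11, adjusted p = 0.00019), -0.62 in experiment 1 (SE 0.12, adjusted p = 0.00327) and -1.14 in experiment 2 (SE 0.12, adjusted p = 0.000175). The ratio of DCA to untreated was 0.540 to 0.783 in the mice of experiment 1 and 0.412 to 0.546 in those of experiment 2. It was called in each experiment without any 1 of the 12 libraries.

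**Figure D3:**
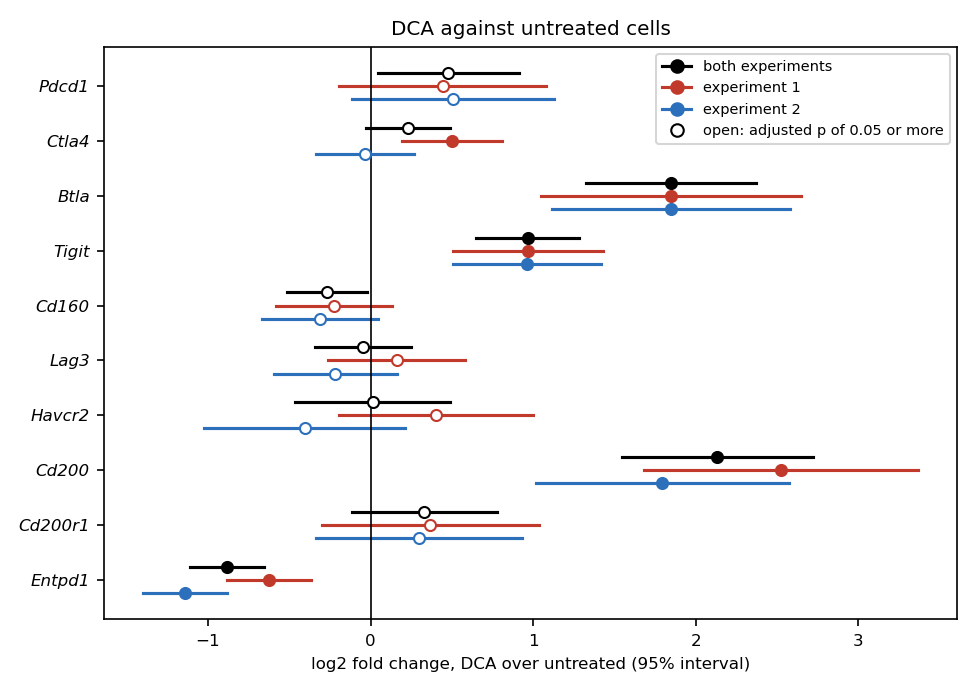
Log2 fold change of DCA over untreated (horizontal axis) for each gene with its 95% interval, over both experiments and within each. Filled points have an adjusted p under 0.05. Cd200, Btla and Tigit are filled above 0 and Entpd1 below 0 in all 3 fits, and Ctla4 is filled in experiment 1 alone, a difference that did not pass the test between experiments.

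Within experiment 1 the test called 5 of the 10 genes, Tigit, Ctla4, Btla and Cd200 higher and Entpd1 lower, where it called 16.7% of all genes (5.67% higher and 11% lower). Within experiment 2 it called 4, Tigit, Btla and Cd200 higher and Entpd1 lower, where it called 4.57% of all genes (2.37% higher and 2.2% lower). Without exp2 untreated replicate 2 only Entpd1 was called in experiment 2, and without exp2 untreated replicate 1 there were 2 calls. The DCA and untreated libraries did not overlap for 4 of the 10 genes in experiment 1, where this held for 29.3% of all genes, and for 5 in experiment 2, against 30.2%. The direction was the same in 6 of 6 mice for 4 of the 10 genes, against 19.1% of all genes. With a term per mouse, 4 of the 10 were called over both experiments, as in the fit without it. With no filter on low counts 7 were called, Pdcd1, Ctla4 and Cd160 being added, and without the experiment term 0 were called. Over all alternatives the calls among all genes ran from 46 to 3542, against 2638 in the main fit.

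The difference of the DCA effects between the experiments was tested itself, and 0 of the 10 genes passed edgeR's test, which called 0.331% of all genes. At an unadjusted p under 0.05 there were 2, Entpd1 and Ctla4. Such values were not rare among all genes, as Ctla4, with an unadjusted p of 0.0189, ranked 1260 of 15688 by p. The fall of Entpd1 was larger in experiment 2 by a log2 difference of -0.52 (95% interval -0.88 to -0.15, adjusted p = 0.179). DESeq2 called it (-0.56, adjusted p = 0.0382). For Ctla4 the difference was -0.54 (95% interval -0.97 to -0.10, adjusted p = 0.235), and it passed with no filter on low counts (adjusted p = 0.0240). For Havcr2 it was -0.81 (-1.67 to 0.05, adjusted p = 0.389) and for Cd200 -0.73 (-1.88 to 0.42, adjusted p = 0.596). For Btla (0.00, interval -1.08 to 1.09) and Tigit (-0.01, interval -0.65 to 0.64) the estimates lie near 0, and differences within these intervals could not be detected here.

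Marker genes of other cells moved in part with DCA. The 6 B cell markers summed to 15.3 to 22.3 CPM untreated and 29.5 to 42.6 with DCA in experiment 1, and to 21.4 to 24.2 and 28.4 to 33.7 in experiment 2. Nearly all of it was Cd79b, a subunit of the B cell receptor complex (log2 fold change 0.75, SE 0.14, adjusted p = 0.00223), and its partner gene Cd79a reached at most 0.311 CPM. The other 5 B cell markers each had at most 55 counts over the 12 libraries. The 10 markers of macrophages, monocytes and dendritic cells summed to 9.64 to 13.5 CPM untreated and 12.4 to 33.5 with DCA in experiment 1, and to 7.55 to 15.3 and 14.3 to 17.3 in experiment 2. Most of that was Cd68, a lysosomal protein gene (0.58, adjusted p = 0.143), and C1qa was at 0. In experiment 2 the 6 CD8 T cell markers summed to 4464 to 4971 CPM untreated and 3574 to 3726 with DCA. In experiment 1 the arms overlapped. Within experiment 2 the test called 5 of the 6 lower, Cd3d, Cd3g, Cd8a, Cd8b1 and Cd2, where 2.2% of all genes were. The median log2 fold change of the 6 was -0.35 there. Within experiment 1 it called Cd2 alone, where 11% of all genes were called lower. Over both experiments Cd2 (-0.50, adjusted p = 9.21e-05) and Cd8b1 (-0.21, adjusted p = 0.0220) fell. The call of Cd8b1 was lost after loess (-0.058, adjusted p = 0.604), with the replicate block (adjusted p = 0.0568) and in 6 of the 12 fits that left out 1 library, those without any 1 library of experiment 2. The part of these marker levels in the changes of Cd200, Btla, Tigit and Entpd1 was not tested.

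Untreated cells of the 2 experiments differed in 7 of the 10 genes, 6 higher and 1 lower in experiment 2, where 51.8% of all genes were called (26.7% higher and 25.2% lower). Lag3 was 6.78-fold higher (log2 fold change 2.76, SE 0.19, adjusted p = 1.69e-08) and Ctla4 2.79-fold higher (1.48, SE 0.14, adjusted p = 6.58e-07). Havcr2 was lower, at -1.33 (SE 0.28, adjusted p = 0.00128). Cd200 (1.73, adjusted p = 0.00207), Btla (1.52, adjusted p = 0.00332), Cd200r1 (1.44, adjusted p = 0.0012) and Pdcd1 (0.78, adjusted p = 0.0388) were also higher. Tigit (0.42, adjusted p = 0.122), Cd160 (0.03, adjusted p = 0.898) and Entpd1 (-0.13, adjusted p = 0.383) did not pass the test.

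Every untreated library of experiment 2 exceeded every one of experiment 1 for Pdcd1, Lag3, Ctla4, Btla, Cd200 and Cd200r1, and lay below it for Havcr2. The gap was narrowest in CPM for Btla (2.27 against 1.83 CPM). Such a lack of overlap held for 59.9% of all genes. Without exp1 untreated replicate 1 the value of Btla was 2.12. The call of Pdcd1 was lost without exp1 untreated replicate 2 (adjusted p = 0.0823) or 3 (0.116) or exp2 untreated replicate 1 (0.0766) or 3 (0.0577).

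With DCA the same 6 genes were higher and Havcr2 lower in experiment 2, and Entpd1 was lower as well, 8 calls where 52.3% of all genes were called (28.1% higher and 24.1% lower). Lag3 (2.39, SE 0.19, adjusted p = 8.1e-08) and Havcr2 (-2.13, SE 0.29, adjusted p = 2.26e-05) had the values farthest from 0 among the 10. Btla was at 1.53 (adjusted p = 0.00189), Cd200r1 at 1.37 (adjusted p = 0.00164) and Ctla4 at 0.94 (adjusted p = 6.05e-05). Entpd1 was at -0.65 (SE 0.12, adjusted p = 0.000382), Pdcd1 at 0.85 (adjusted p = 0.0253) and Cd200 at 1.00 (adjusted p = 0.0313). Libraries did not overlap for 7 of the 10 genes, Lag3, Havcr2, Ctla4, Btla, Cd200, Cd200r1 and Entpd1, against 61.5% of all genes.

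Leaving out 1 library ended the calls of Pdcd1 and Cd200 in DCA cells in several cases. Pdcd1 was at 1.38 without exp1 DCA replicate 1, and its call was lost without exp1 DCA replicate 2 (adjusted p = 0.0840) or 3 (0.0885) or exp2 DCA replicate 1 (0.105) or 3 (0.0842). Cd200 was at 1.55 without exp1 DCA replicate 2, and its call was lost without exp1 DCA replicate 1 (0.108) or 3 (0.120) or exp2 DCA replicate 1 (0.0652), 2 (0.0587) or 3 (0.0882).

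The experiments also differed in library composition, with TMM factors of 0.818 to 0.934 in experiment 1 and 1.12 to 1.17 in experiment 2. The median of all genes was 0.11 in untreated and 0.11 in DCA cells, and cyclic loess normalization lowered it by 0.13 and 0.14. After loess Lag3 was still at 2.48 and 2.09 and Havcr2 at -1.63 and -2.47, and Cd160 in untreated cells was called higher in experiment 2 (0.44, adjusted p = 0.0302). The calls of Pdcd1 in untreated cells (0.62, adjusted p = 0.0927) and of Cd200 in DCA cells (0.85, adjusted p = 0.0680) were lost. NK cell markers, 4 genes, summed to 12.7 to 24.5 CPM in experiment 1 and 0.479 to 1.73 in experiment 2, and their part in these differences was not tested.

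**Figure D4:**
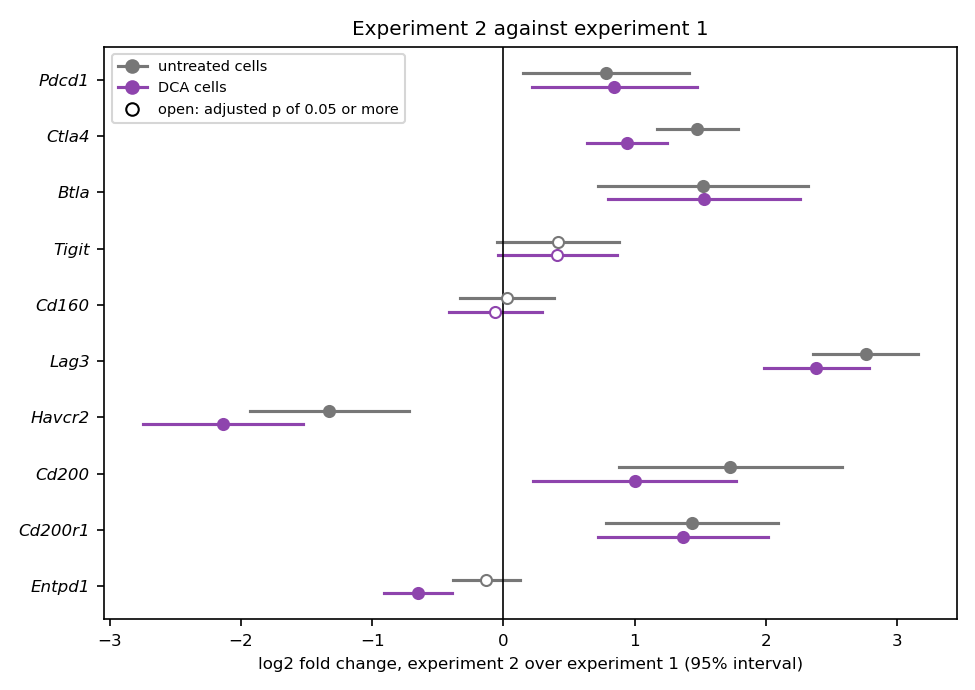
Log2 fold change of experiment 2 over experiment 1 (horizontal axis) with its 95% interval, in untreated and in DCA cells. Filled points have an adjusted p under 0.05. Lag3 lies farthest above 0 (2.76 and 2.39) and Havcr2 is below 0 in both arms (-1.33 and -2.13).

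Of the 10 genes, 4 lie on mouse chromosome 16, in the order Tigit, Cd200r1, Btla and Cd200 in the RefSeq annotation of GRCm38.p6. Btla and Cd200 are next to each other, with 0 protein-coding genes between them, on opposite strands and pointing towards each other. From Tigit to Cd200 there are 24 protein-coding genes, of which 18 were tested. With DCA 5 of the 18 rose, here with their log2 fold changes, and they were Tigit, Sidt1 (0.61, adjusted p = 0.0095), Spice1 (0.35, adjusted p = 0.0224), Btla and Cd200. The 2 that fell were Naa50 (-0.45, adjusted p = 0.00156) and Atg3 (-0.51, adjusted p = 0.00138). Among all genes 16.8% were called, 7.01% higher and 9.8% lower. These shares are no independent yardstick, because the stretch was bounded by Tigit and Cd200, already called higher, and holds Btla. Apart from the members described here, Sidt1 and Spice1 alone rose and Naa50 and Atg3 alone fell. The median of the 18, the members included, was 0.22. Spice1 was not called with no filter on low counts (adjusted p = 0.133) or without exp2 untreated replicate 1 (0.0511) or 2 (0.0603) or exp2 DCA replicate 3 (0.0590).

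Neighbours of the genes that changed were examined in turn. Atg3, an autophagy gene, lies next to Btla and fell, and Slc35a5, the next one out, had a log2 fold change of 0.02 (adjusted p = 0.944). On the far side of Cd200 the nearest 3, Gm609, Gm17783 and Slc9c1, had too few counts to test. Beside Tigit, Zbtb20 was at 0.19 (adjusted p = 0.469), Ccdc191 at 0.19 (adjusted p = 0.337) and Qtrt2 at -0.49 (adjusted p = 0.0534). Beside Entpd1 on chromosome 19, Aldh18a1 had a log2 fold change of -0.23 (adjusted p = 0.0342) and was called in only 5 of 20 alternatives, and in 2 of the 12 that left out 1 library. Its call was lost with the replicate block (adjusted p = 0.0662), after loess (0.215), with no filter (0.0755) and with the filter at 5 CPM (0.0587). Tctn3 (-0.07), Ccnj (-0.13) and Zfp518a (-0.01) did not pass the test.

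**Figure D5:**
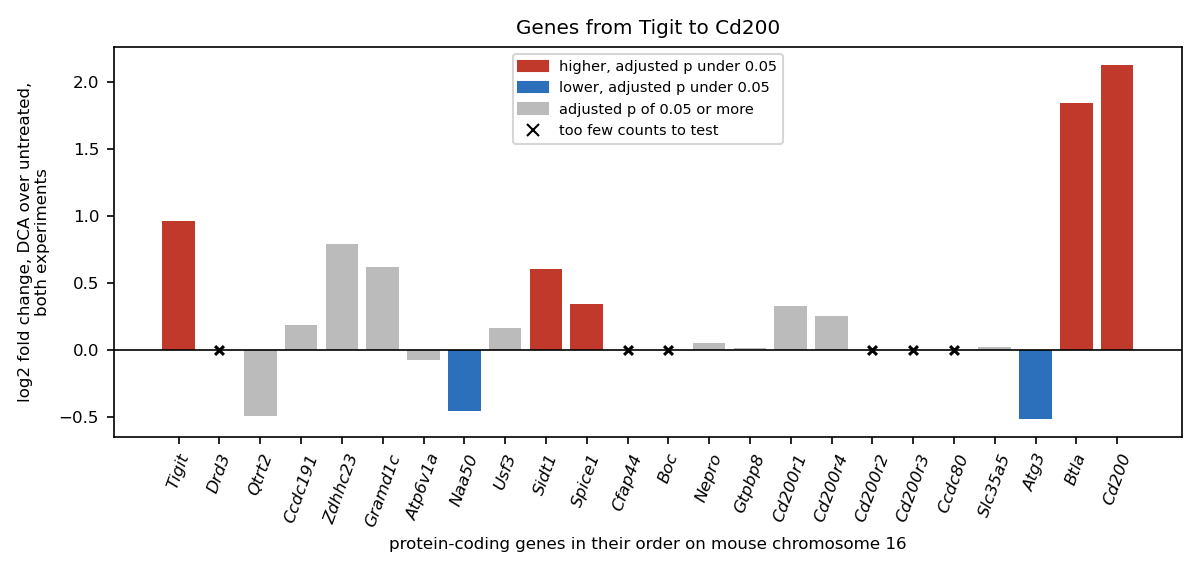
Log2 fold change of DCA over untreated over both experiments (vertical axis) for the 24 protein-coding genes from Tigit to Cd200, in their order on chromosome 16. Crosses are the 6 genes with too few counts to test. Btla and Cd200 stand side by side at 1.85 and 2.13.

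Ligands and binding partners of the receptors, with some related receptors, were measured in the same cells. Of 24 genes on the list, 20 were tested. Over both experiments 4 rose and 1 fell, where 16.8% of all genes were called, with a median log2 fold change of 0.14. Leaving out 1 library gave 2 to 6 calls on this list, with 2 without exp2 untreated replicate 2 and 3 without exp1 untreated replicate 1 or exp2 DCA replicate 1 or 2. Cd80, a ligand of both CD28 and CTLA-4, rose by 1.08 on the log2 scale (SE 0.16, adjusted p = 0.000686), from 14.1 to 23.8 CPM in the mean of experiment 1 and from 7.19 to 19.1 CPM in experiment 2. Nectin2, a ligand of TIGIT and related receptors, rose by 1.59 (SE 0.37, adjusted p = 0.00884), and Cd28 by 0.26 (SE 0.07, adjusted p = 0.0261). Nectin2 was low, at 0.132 and 0.331 CPM untreated and with DCA in experiment 1, and at 0.965 and 3.31 in experiment 2. Within experiment 1 Nectin2 did not pass the test (adjusted p = 0.173), and within experiment 2 it did (0.0494). Cd28 was not called with the replicate block (adjusted p = 0.0523) and was called in 7 of the 12 fits that left out 1 library, the losses being exp1 untreated replicate 1, exp1 DCA replicates 1 and 2, exp2 untreated replicate 2 and exp2 DCA replicate 2. The other gene that rose was Icos, named here after its values were seen. Hmgb1, a nuclear protein gene whose product TIM-3 can bind, fell by 0.23 (SE 0.05, adjusted p = 0.00678), a call that loess normalization ended (-0.06, adjusted p = 0.510), as it did that of Nectin2 (adjusted p = 0.0507). Hmgb1 was also not called without exp2 untreated replicate 2 (0.0510) or exp2 DCA replicate 1 (0.0590) or 2 (0.0614).

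The other direct partners did not pass the test. Cd86, the second ligand of CTLA-4, was at -1.38 (SE 0.48, adjusted p = 0.0731) and low, at 3.48 and 2.63 CPM in experiment 1 and 1.92 and 0.320 CPM in experiment 2, in untreated and DCA cells. It was called by DESeq2 (adjusted p = 0.0122), with no filter (0.0017) and after loess (0.0393). The PD-1 ligand genes Cd274 (0.16, adjusted p = 0.617) and Pdcd1lg2 (0.24, adjusted p = 0.324) and the HVEM gene Tnfrsf14 (0.43, adjusted p = 0.372) did not pass. Cd226 (-0.11, adjusted p = 0.691) and Cd96 (-0.02, adjusted p = 0.883), which share the ligand of TIGIT, did not pass either.

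Of 22 tested genes of signalling below the receptors, 1 rose and 3 fell, a share near the 16.8% of all genes called, with a median log2 fold change of -0.08. Sh2d1a, an adaptor of SLAM family receptors, rose by 0.40 (adjusted p = 0.00824). Dok2, an adaptor that dampens Ras signalling, fell by 0.64 (adjusted p = 0.000567), Ubash3a, a suppressor of T cell receptor signalling, by 0.37 (adjusted p = 0.00804), and Csk, the kinase that inactivates Lck, by 0.26 (adjusted p = 0.0120). The call of Csk was lost after loess (adjusted p = 0.0935).

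Of 22 tested genes of the purinergic and adenosine path, in which CD39 acts, 1 rose and 3 fell, again near the 16.8% of all genes, with a median log2 fold change of -0.16. Nt5e, which encodes CD73, the next enzyme after CD39, was at 0.02 (SE 0.22, adjusted p = 0.973). P2rx7, an ATP-gated channel, fell by 1.30 (adjusted p = 0.0254), Adora3, an adenosine receptor, by 0.76 (adjusted p = 0.0192), and Ada, the enzyme that deaminates adenosine, by 0.40 (adjusted p = 0.00997). Mean levels of P2rx7 in untreated and DCA cells were 1.46 and 0.462 CPM in experiment 1, and 18.3 and 8.53 CPM in experiment 2. Bst1, an ADP-ribosyl cyclase gene, rose by 1.16 (adjusted p = 0.00308). Of the 12 fits that left out 1 library, P2rx7 was called in 9, the losses being exp2 untreated replicate 3 and exp2 DCA replicates 1 and 2, and Adora3 in 8, the losses being exp2 untreated replicate 1 and every exp2 DCA replicate. DESeq2, loess and limma-voom each called 7 genes on this list.

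Of 20 tested genes of further inhibitory receptors, 0 rose and 3 fell, where 16.8% of all genes were called, with a median log2 fold change of -0.07. They were Lilrb4a (-0.73, adjusted p = 0.0317), Lilrb4b (-0.49, adjusted p = 0.0393) and Tnfrsf9 (-0.28, adjusted p = 0.0388), the last of which encodes the costimulatory receptor 4-1BB. The count of calls on this list ran from 0 to 7 over the settings tried, where calls among all genes ran from 46 to 3542. The list had 5 calls without exp1 untreated replicate 1, 1 without exp2 untreated replicate 1 or 2 or exp2 DCA replicate 3, and 0 without exp2 DCA replicate 1. Lilrb4a was called in 5, Lilrb4b in 4 and Tnfrsf9 in 3 of the 12 fits that left out 1 library, and with the replicate block Lilrb4b (adjusted p = 0.0638) and Tnfrsf9 (0.0580) were not called. Lilrb4a and Lilrb4b are close copies, and their reads may have been split between them.

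Of 20 tested transcription regulators linked to inhibitory receptor expression, 5 rose and 2 fell, against 7.01% and 9.8% of all genes, with a median log2 fold change of 0.33. Ikzf2, the gene of Helios, rose by 1.60 (adjusted p = 0.00049), Tcf7, the gene of TCF-1, by 1.27 (adjusted p = 0.000946) and Id3, an inhibitor of E proteins, by 0.88 (adjusted p = 0.000245). The other two that rose were Prdm1 and Irf4, named here after their values were seen. Eomes, a T-box factor, fell by 0.91 (adjusted p = 0.00178) and Id2 by 0.40 (adjusted p = 0.00228).

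Of 16 tested stimulatory receptors of the same families, 5 rose and 2 fell, against 7.01% and 9.8% of all genes, with a median log2 fold change of 0.18. Slamf6, a SLAM family receptor, rose by 2.13 (adjusted p = 1.9e-05), Crtam by 1.80 (adjusted p = 0.0186) and Slamf1 by 0.87 (adjusted p = 0.000361). Crtam was low, at 0.508 and 1.65 CPM untreated and with DCA in experiment 1, and at 0.632 and 2.36 in experiment 2. It was called in neither experiment alone (adjusted p = 0.120 and 0.146). Cd28 and Icos also rose, and Cd2 and Tnfrsf9 fell. With the replicate block the list had 4 calls, and those of Crtam (1.71, adjusted p = 0.0606), Cd28 (adjusted p = 0.0523) and Tnfrsf9 (adjusted p = 0.0580) were lost. Leaving out 1 library gave 4 to 6 calls, with 4 without exp1 DCA replicate 2, where Crtam was also lost (1.44, adjusted p = 0.0664). Stimulatory receptors thus included genes that rose and genes that fell with DCA. Among the 10 genes no receptor was called lower over both experiments, except Cd160 in 2 of 20 alternatives. Lilrb4a and Lilrb4b, the further inhibitory receptors called lower, lost the call in most fits that left out 1 library. So did Tnfrsf9, which is counted on both lists.

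Genes with the most similar pattern over the 12 libraries were sought among 10454 genes, as the smallest root mean square difference of centred log2 CPM. For Cd200 they were Plxnb2 (0.41) and Wls (0.50), for Btla Tanc2 (0.40) and Fam228a (0.42), for Tigit Ripor2 (0.21) and S100a11 (0.24), and for Entpd1 H2bc11 (0.25) and Babam2 (0.27). For Ctla4 they were Pdk1 (0.13), the gene of a kinase that DCA inhibits, and Faah (0.16), and for Cd160 Srd5a3 (0.13) and Wdr20 (0.14). For Lag3 they were Smpd1 (0.19) and Slc16a3 (0.20), for Pdcd1 Magee1 (0.23) and Tedc2 (0.24), for Havcr2 Nsmce4a (0.30) and 3110045C21Rik (0.30), and for Cd200r1 Orai1 (0.24) and Zfp609 (0.25). With a prior count of 0.5 all 20 of these genes were found again. With centring within each experiment 3 of the 20 were, Magee1, Ripor2 and Zfp609. Ctla4 then had Hint3 (0.081) and Ccni (0.086) in place of Pdk1 and Faah. Among the 10 genes the closest pair by this measure was Pdcd1 and Ctla4 (0.42) and the farthest Lag3 and Havcr2 (2.21). Btla and Cd200 were at 0.57. The measure also depends on how much each gene varies, so small values among genes that vary little need not mean a shared pattern. The SD of log2 CPM over the 12 libraries was 0.27 for Cd160, 0.63 for Pdcd1 and 0.69 for Ctla4. It was 1.35 for Btla and 1.41 for Cd200.

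The authors' deposited table of DCA against untreated cells holds 15067 genes, of which 1588 have a false discovery rate under 0.05. In the authors' deposited table Entpd1 stood at -0.88 (false discovery rate 0.000335), Cd200 at 2.13 (0.000379), Btla at 1.85 (0.000509) and Tigit at 0.97 (0.00138). In the authors' deposited table these 4 rank 54, 63, 70 and 164 by p. Pdcd1 is at 0.48 (0.188) in the authors' deposited table, and the other 5 have a false discovery rate of 0.255 or more there.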

How the data were processed

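The cDNA came from a SmartSeq kit with 15 amplification cycles, per the labels' protocols. The authors deposited raw read counts per gene, whole numbers without normalization, for 56748 genes in 12 libraries. The submitters' processing notes name fastp 0.23.2, STAR 2.7.10a, edgeR 3.36.0 and build GRCm39. Which program counted reads, with which annotation and strand setting, is not given in the sources used here, and overlapping or antisense genes cannot be separated. A second table deposited by the authors gives their own log2 fold changes, log2 CPM, p-values and false discovery rates for DCA, and the gene lengths behind levels per kilobase.

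All tests used edgeR 4.0.16 (R 4.3.3), with TMM factors, filterByExpr over the 4 groups, quasi-likelihood F tests and Benjamini-Hochberg adjustment over 15688 genes, at a threshold of 0.05. DCA over both experiments was fitted with a term for experiment, and every other comparison as a contrast of 4 group means over the 12 libraries. SEs and 95% intervals come from the fitted model with moderated dispersions. The script was checked on simulated counts. Both libraries of a mouse share a mouse number in the labels, which pairs them by design. Deviations from group means correlated at 0.0444 to 0.0834 within mice and at -0.0689 to -0.00438 between mice. There are no molecular identifiers, so reads copied during amplification cannot be told from separate molecules. A depth of 28039699 to 41051066 counts per library therefore measures neither the number of molecules counted nor the spread between mice.

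The 10 genes and 6 further lists were chosen with earlier results of these data known. The text names all 10 genes, their direct partners, up to 3 genes of each list called in each direction by adjusted p, 3 neighbours on each side of the genes called, and 2 genes of similar pattern each (mean log2 CPM of at least 1, prior count 2). Some genes that this rule covers are not reported here. The alternatives were RLE size factors, cyclic loess with limma 3.58.1, limma-voom, DESeq2 1.42.0, leaving low counts unfiltered, a minimum of 5 CPM in 3 libraries, a replicate block with 1 term for each mouse, dropping the experiment term, fitting only the 6 libraries compared, a prior count of 0.5 or centring within experiments for similar patterns, and leaving out each library in turn.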

Additional observations from a re-analysis of the deposited data

How the results depend on the processing

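Of the DCA calls over both experiments, Cd200, Btla, Tigit and Entpd1 were called in 19 of 20 alternatives each, the exception being the fit without the experiment term. Of the 10 genes, that fit called 0 (46 of all genes), no filter on low counts called 7, and leaving out 1 library called 4 to 6. In experiment 2 leaving out 1 library gave 1 to 4 calls among the 10. For the difference between experiments DESeq2 and no filter on low counts each called 1 of the 10. With the replicate block, 4 of the 10 were called over both experiments and 4 in each experiment, and the block ended no call of the 10 except that of Ctla4 in experiment 1 (adjusted p = 0.0659). Among the other genes named, the block ended the calls of Cd28, Tnfrsf9, Lilrb4b, Crtam, Aldh18a1 and Cd8b1 over both experiments. Calls among all genes ran from 46 to 3542 over both experiments, and from 1981 to 2588 there when 1 library was left out. They ran from 210 to 1564 in experiment 2, from 1251 to 3270 in experiment 1 and from 1 to 566 for the difference.

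Signs turned only for values that had not passed the test. Cyclic loess gave -0.068 for Havcr2 over both experiments, 0.024 for Ctla4 in experiment 2, 0.058 for Entpd1 between untreated cells, 0.30 for Cd160 between DCA cells and 0.11 for Cd96. For the difference, Btla was at -0.029 with RLE, -0.041 with loess, -0.19 with limma-voom, -0.032 with DESeq2, -0.085 with the filter at 5 CPM and -0.063 with the replicate block. Cd200r1 was at 0.010 with loess, 0.020 with limma-voom and 0.0098 with the replicate block, and Pdcd1 at -0.026 with the filter at 5 CPM. Over both experiments Cd96 was at 0.020 with that filter, Nt5e at -0.029 without the experiment term, and Zfp518a at 0.0074 with limma-voom, 0.037 with the filter at 5 CPM and 0.0032 with the replicate block.

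Leaving out 1 library turned further signs. Over both experiments the ranges were -0.15 to 0.045 for Lag3, -0.078 to 0.23 for Havcr2, -0.058 to 0.024 for Cd96, -0.098 to 0.21 for Nt5e, -0.056 to 0.11 for Slc35a5, -0.15 to 0.029 for Tctn3 and -0.064 to 0.090 for Zfp518a. In experiment 1 they were -0.086 to 0.74 for Pdcd1 and -0.039 to 0.25 for Lag3. For the difference they were -0.23 to 0.60 for Pdcd1, -0.22 to 0.18 for Tigit, -0.30 to 0.20 for Cd160, -0.59 to 0.36 for Btla and -0.38 to 0.24 for Cd200r1. Between experiments they were -0.0092 to 0.13 for Cd160 and -0.21 to 0.015 for Entpd1 in untreated cells, and -0.27 to 0.23 for Cd160 in DCA cells. The cause was not tested. Low counts limit Btla and Cd200 in untreated cells of experiment 1.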
